A study of Mus musculus with 6 samples.

Results

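The matrix proteases of the mouse kidney, the inhibitors that hold them in check and the lysyl oxidases that crosslink the matrix were followed in kidneys injured by repeated cisplatin. The genes were set by a rule on symbols, as the protein-coding genes named Mmp, Timp, Adamts or Adamtsl with a number, and Lox with its numbered relatives. Earlier results of these data were known when the rule was chosen. The rule found 57 genes among the 21630 protein-coding genes of the annotation, out of 56691 genes counted. They are 23 matrix metalloproteinases (MMPs), 4 tissue inhibitors of metalloproteinases (TIMPs), 19 ADAMTS proteases, 5 ADAMTS-like proteins, 5 lysyl oxidases and Mmp24os1. Mmp24os1 takes its name from its place on the strand opposite to Mmp24 and is not a protease, so it was counted with the genes but left out of every MMP sum.

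Kidney RNA was sequenced from 3 male C57BL/6 mice given cisplatin and from 3 male C57BL/6 control mice given saline, with 1 library per mouse. Cisplatin, a platinum drug that injures the proximal tubule, was injected into the peritoneum at 8 mg per kg, 4 times at weekly intervals, starting at 9 weeks of age, and all kidneys were taken at week 7. No engineered allele was stated for either group, although GEO's genotype field holds the words for injury and control. Whole kidney was used, so that a change in the number of cells of a type and in RNA per cell cannot be told apart.

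The extracellular matrix is remodelled by enzymes that are secreted as inactive proforms and opposed by dedicated inhibitors. MMPs cleave collagens, gelatin, elastin and many cell surface proteins, and TIMPs bind their active site. ADAMTS proteases cleave large proteoglycans such as versican or trim the ends of procollagens, while ADAMTS-like proteins lack the protease domain and bind fibrillin microfibrils. Lysyl oxidases oxidise lysines of collagen and elastin, which then crosslink, and crosslinked matrix is a hallmark of fibrosis in the chronically injured kidney.

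Counted read pairs numbered 21891855 to 25356523 in cisplatin libraries and 24111688 to 26627554 in control libraries. Values are CPM, read counts divided by library size, where the library sizes were scaled by TMM, a method that sets most genes equal between libraries. The scaling factors were 1.05 to 1.26 in cisplatin and 0.844 to 0.894 in control libraries. The cisplatin libraries differed more among themselves than the control libraries, as the chi-square per gene between pairs of libraries was 13.5 to 40.9 in cisplatin and 4.70 to 6.87 in control. All 9 markers of tubular injury were higher after cisplatin and 9 of 10 proximal tubule markers lower, and the proximal tubule markers summed to 4758 to 4957 CPM in cisplatin and 32916 to 33319 CPM in control kidneys. Most of this contrast was 1 gene, Kap, without which the sums were 4425 to 4692 CPM in cisplatin and 11305 to 12582 CPM in control kidneys.

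10 of the 23 MMP genes stand in a row on chromosome 9 (GRCm39), from Mmp13 at chr9:7272514-7283331 to Mmp7 at chr9:7692091-7699587, in the order Mmp13, Mmp12, Mmp1b, Mmp3, Mmp1a, Mmp10, Mmp8, Mmp27, Mmp20 and Mmp7. All but Mmp1b lie on the plus strand. The windows around their start sites are shown because the 2 end genes of the row moved in opposite directions, and the windows of Timp1 and Timp3 because the inhibitors did so too. The sequences are from RefSeq (GRCm38.p6), 300 bases each, from 250 bases before to 50 bases after the gene start, and where a gene has several, the one that holds the motif is shown. They run 5′ to 3′ on the plus strand. Capitals mark the AP-1 motif TGANTCA and the TATA box TATAAA in the MMP windows, and the GC box GGGCGG, here read on the minus strand, in the TIMP windows.
Mmp13 (chr9:7272264-7272563): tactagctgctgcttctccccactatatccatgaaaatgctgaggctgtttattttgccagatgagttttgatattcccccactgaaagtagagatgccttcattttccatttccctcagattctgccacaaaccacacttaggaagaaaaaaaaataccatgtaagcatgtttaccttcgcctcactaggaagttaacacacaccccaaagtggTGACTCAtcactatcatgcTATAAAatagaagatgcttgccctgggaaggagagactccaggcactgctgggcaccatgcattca
Mmp12 (chr9:7347124-7347423): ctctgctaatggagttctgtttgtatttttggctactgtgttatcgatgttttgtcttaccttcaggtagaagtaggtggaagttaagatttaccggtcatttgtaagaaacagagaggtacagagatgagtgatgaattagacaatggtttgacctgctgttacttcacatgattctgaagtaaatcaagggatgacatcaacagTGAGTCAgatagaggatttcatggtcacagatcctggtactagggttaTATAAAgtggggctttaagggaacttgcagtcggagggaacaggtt
Mmp3 (chr9:7445572-7445871): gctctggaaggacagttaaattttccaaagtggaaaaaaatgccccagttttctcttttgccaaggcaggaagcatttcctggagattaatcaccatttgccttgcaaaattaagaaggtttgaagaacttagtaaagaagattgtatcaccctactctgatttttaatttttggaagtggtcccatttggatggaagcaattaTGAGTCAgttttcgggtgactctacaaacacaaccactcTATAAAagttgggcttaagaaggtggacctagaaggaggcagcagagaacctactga
Mmp7 (chr9:7691840-7692139): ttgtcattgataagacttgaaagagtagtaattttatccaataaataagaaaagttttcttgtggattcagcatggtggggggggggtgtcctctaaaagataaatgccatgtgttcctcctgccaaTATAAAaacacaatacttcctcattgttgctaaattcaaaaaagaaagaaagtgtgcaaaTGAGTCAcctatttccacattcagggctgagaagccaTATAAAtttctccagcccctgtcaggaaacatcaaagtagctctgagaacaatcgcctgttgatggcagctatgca
Timp1 (chrX:20869916-20870215): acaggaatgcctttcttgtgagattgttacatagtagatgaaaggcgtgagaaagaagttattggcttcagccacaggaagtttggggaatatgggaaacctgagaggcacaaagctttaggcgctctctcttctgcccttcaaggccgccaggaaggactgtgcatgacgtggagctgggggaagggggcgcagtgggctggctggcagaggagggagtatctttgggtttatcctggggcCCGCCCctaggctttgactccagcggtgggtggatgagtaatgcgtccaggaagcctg
Timp3 (chr10:86300162-86300461): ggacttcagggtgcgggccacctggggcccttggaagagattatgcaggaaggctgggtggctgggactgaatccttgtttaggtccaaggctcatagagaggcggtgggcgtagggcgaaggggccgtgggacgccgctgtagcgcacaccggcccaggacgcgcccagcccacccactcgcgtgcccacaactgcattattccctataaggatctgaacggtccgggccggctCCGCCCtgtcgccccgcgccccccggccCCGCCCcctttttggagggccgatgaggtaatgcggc

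Each of the 4 MMP windows held 1 AP-1 motif, the binding site of Fos and Jun proteins, which began 35 bases before the start in Mmp13, 44 in Mmp12, 46 in Mmp3 and 63 in Mmp7. No 2 of these motifs overlapped in the windows shown. RefSeq windows were found for 37 of the 57 genes, among them all 10 of the chromosome 9 row, and a gene with several windows was counted once. Searched on both strands, the AP-1 motif stood in a window of 8 of the 10 row genes and of 0 of the 27 other genes, against 7.81% of all 32851 windows. The TATA box was found in 9 of the 10 and in 3 of the 27, against 13.6% of all windows. The GC box had the opposite pattern, with 0 of the 10 and 23 of the 27, against 35.7% of all windows. The AP-1 motif was thus shared by Mmp7, which was higher after cisplatin, by Mmp13, which was lower, and by Mmp12 and Mmp3, which did not pass the test. A match describes these letters only and was not tested as a binding site.

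Of the 57 genes, 41 passed the filter on low counts and 16 did not. After cisplatin, 26 of the 41 were higher and 4 lower (edgeR quasi-likelihood test, Benjamini-Hochberg adjusted p under 0.05 over 15662 genes). The background was high in both directions, with 24.5% of all tested genes higher and 22.8% lower. The higher share of the 41 was 63.4% and the lower share 9.76%. Of the 41, 19 were called and at least 2-fold higher, as were 9.78% of all tested genes. The median log2 fold change was 0.83 over the 41 genes and 0.05 over all tested genes. Of the 41, the 3 cisplatin libraries lay entirely above the 3 control libraries in 26 (63.4%) and entirely below in 4 (9.76%). Over all tested genes these shares were 30.2% and 27.6%. The separated genes are the 30 called genes, which were picked on the same libraries, so that the separation adds no support to the calls. Over the 13634 tested protein-coding genes alone the background was much the same, with 25.7% higher, 24.2% lower and 9.92% called and at least 2-fold higher, and with 30.9% separated upward and 29.1% downward.

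The filter itself favours genes that are high in 1 group. Timp1, Mmp3, Mmp7, Mmp16, Mmp19, Adamts3 and Adamts17 passed through the cisplatin libraries only, and Mmp13 and Adamtsl3 through the control libraries only. The filter asks for about 0.41 CPM, and 32 genes reached that level in all 6 libraries. Among these, 21 were higher and 2 lower, with a median log2 fold change of 0.82. Under a like filter over all genes, at least 10 counts in every library, 3512 of 13827 genes were higher and 3189 lower. Scaled by library totals alone, 30 of the 41 were higher and 3 lower, while the median over all genes was 0.48 on the log2 scale and 8508 genes were called higher against 1375 lower. The plot of log2 fold changes by family shows the size and error for each tested gene.

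**Figure D1:**
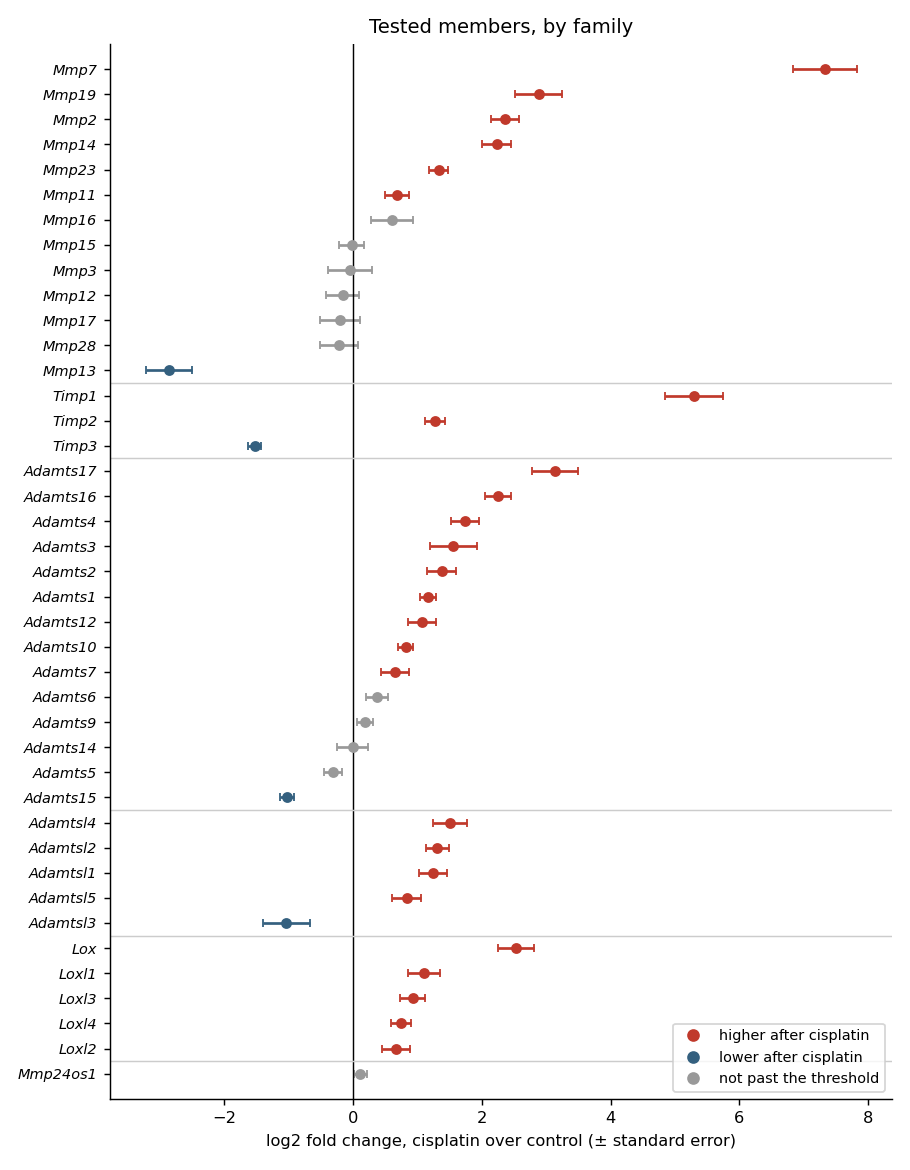
Log2 fold change of cisplatin over control (x axis, ± standard error) for the 41 tested genes, grouped by family, with red for higher, blue for lower and grey for genes that did not pass the test. The lysyl oxidases all lie right of 0, while the MMPs, TIMPs, ADAMTS and ADAMTS-like genes each have 1 blue member. The point of Mmp7 depends on a fitted value, since its control libraries hold 1 count in all.

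The TIMPs, the inhibitors, diverged. Timp3 fell by 1.53 on the log2 scale while Timp2 and Timp1 rose, and Timp4 was too low to test. Timp3 binds to the matrix and inhibits ADAM17 and several ADAMTS proteases as well as MMPs. It had 523, 493 and 464 CPM in cisplatin kidneys, against 1384, 1468 and 1422 CPM in control kidneys. Its log2 fold change was -1.53 (SE 0.102, adjusted p = 1.26e-06, edgeR), the smallest adjusted p of the 41 genes. Even after this fall Timp3 had the highest level per kb of exon of all 57 genes in both groups, with 60.6 CPM per kb in cisplatin and 175 CPM per kb in control kidneys.

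Timp2, which inhibits MMP2 but also joins MMP14 in activating it, had 70.5, 54.8 and 44.5 CPM in cisplatin kidneys, against 25.7, 24.0 and 20.8 CPM in control kidneys. The groups did not overlap, and the log2 fold change was 1.27 (SE 0.154, adjusted p = 7.56e-05, edgeR). The exons of Timp2 share 332 bases with Cep295nl on the same strand, where the reads cannot be assigned to one gene. Timp1, an injury-induced inhibitor of most secreted MMPs, was close to absent from control kidneys. It had 5.20, 3.55 and 6.50 CPM in cisplatin kidneys, against 0.0420, 0.0487 and 0.289 CPM in control kidneys, or 406 counts against 8 in all. Its log2 fold change was 5.30 (SE 0.452, adjusted p = 6.72e-06, edgeR), about 39.4-fold. Control library 3 holds 6 of the 8 control counts, and without it the log2 fold change was 6.65. By level per kb Timp1 was 11th among the 57 genes in cisplatin and 38th in control kidneys.
Timp4, an inhibitor known best from the heart, had 13 counts in cisplatin against 10 in control libraries. In CPM these were 0.103, 0.302 and 0.0436 in cisplatin and 0.168, 0.0487 and 0.240 in control kidneys, with overlapping groups. Timp1, Timp3 and Timp4 each lie inside a synapsin gene on the opposite strand (Syn1, Syn3 and Syn2), and the strand-specific counts keep them apart. Opposite-strand counts were 0.072% of those at Timp3, so that Syn3 added almost nothing there.

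**Figure D2:**
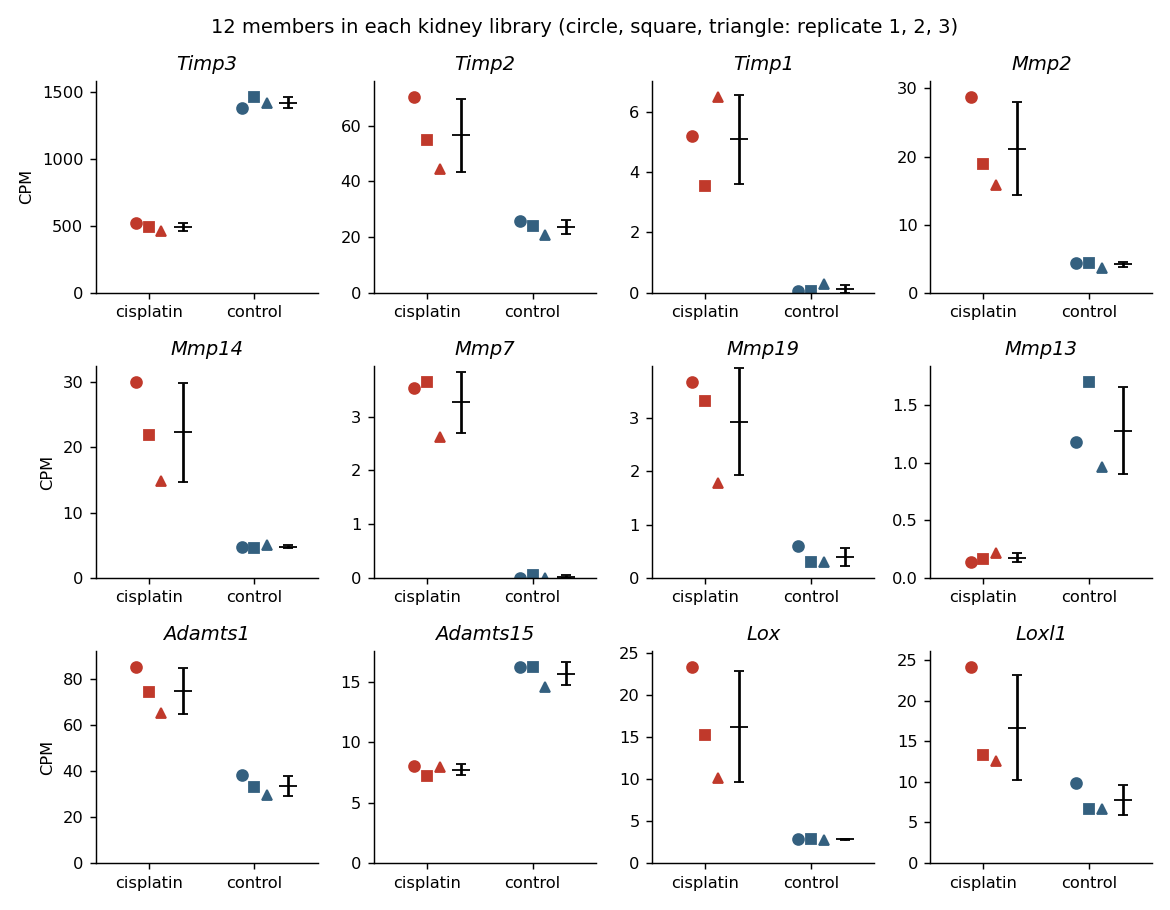
CPM (y axes, linear, from 0) of 12 genes in each library, cisplatin in red on the left and control in blue on the right, with bars for the mean ± SD of 3 libraries. Timp3, Mmp13 and Adamts15 sit lower in all 3 cisplatin libraries than in any control library, and the other 9 genes higher.

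The gelatinase Mmp2, which degrades denatured collagen and type IV collagen, and the membrane-type protease Mmp14, which activates the MMP2 proform at the cell surface, rose by similar amounts. Mmp2 had 28.8, 19.0 and 15.7 CPM in cisplatin kidneys, against 4.37, 4.38 and 3.65 CPM in control kidneys. Its log2 fold change was 2.36 (SE 0.216, adjusted p = 1.06e-05, edgeR). Mmp14 had 30.1, 22.0 and 14.8 CPM in cisplatin kidneys, against 4.75, 4.53 and 5.001 CPM in control kidneys, a log2 fold change of 2.23 (SE 0.226, adjusted p = 2.12e-05, edgeR). In both genes even the lowest cisplatin library stood far above the highest control library. With Timp2, the mRNAs for all parts of the MMP14, TIMP2 and MMP2 activation complex were thus higher after cisplatin. The proteins, the complex and its activity were not measured here. The other gelatinase, Mmp9, an enzyme of neutrophils and macrophages, was at the limit of detection, with 0.344, 0.168 and 0.0872 CPM in cisplatin and 0.504, 0.195 and 0.144 CPM in control kidneys. Its 17 counts against 19 did not pass the filter, so that a difference was not detectable at this depth.

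Mmp7, or matrilysin, a small MMP made by injured epithelia, was close to absent from control kidneys and present in all 3 cisplatin kidneys. It had 103, 109 and 60 counts in the cisplatin libraries, against 0, 1 and 0 counts in the control libraries. In CPM these were 3.55, 3.65 and 2.62 in cisplatin and 0, 0.0487 and 0 in control kidneys. The ratio of the summed counts, scaled for depth, was 217, with an exact 95% interval of 38.5 to 8583 that covers counting error only. The edgeR adjusted p was 1.37e-06. The only control count lies in control library 2, and without it the control libraries are at 0. Mmp7 made up 14.7% of the summed MMP level per kb in cisplatin kidneys and 0.227% in control kidneys.

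Mmp13, or collagenase-3, which cuts fibrillar collagen, was the only tested interstitial collagenase and moved the other way. It had 4, 5 and 5 counts in the cisplatin libraries, against 28, 35 and 20 counts in the control libraries. In CPM these were 0.138, 0.168 and 0.218 in cisplatin and 1.18, 1.70 and 0.962 in control kidneys, a log2 fold change of -2.86 (SE 0.364, adjusted p = 0.000103, edgeR). The groups did not overlap, although the cisplatin values rest on 14 counts in all. The other collagenases were near or at 0, with 0 counts in all 6 libraries for Mmp1a and Mmp1b and 5 counts in cisplatin against 0 in control for Mmp8, the neutrophil collagenase.

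Between these end genes of the chromosome 9 row, the 2 tested genes did not pass the test. Mmp12, the elastase of macrophages, had 1.10, 1.34 and 1.35 CPM in cisplatin kidneys, against 1.35, 1.02 and 1.88 CPM in control kidneys. Mmp3, or stromelysin-1, had 0.413, 0.536 and 0.523 CPM in cisplatin kidneys, against 0.673, 0.487 and 0.337 CPM in control kidneys. In both the groups overlapped, with adjusted p of 0.621 and 0.926 (edgeR). Mmp10 had 0 counts in every library. Mmp27 had 21 counts in cisplatin and 0 in control libraries, at least 5.57-fold higher against a floor of 3 counts over the control group, and Mmp20, the protease of tooth enamel, had 9 against 0, at least 2.39-fold higher. Mmp27 and Mmp20 did not pass the filter and were called higher when it was dropped. The edgeR fit without the filter gave far smaller adjusted p at like effects, as for Adamts1 at 5.14e-25 against 2.9e-05 in the main fit. These 2 calls are thus not on a par with those of the main fit. The plot of the cluster in gene order shows the contrast between its ends.

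**Figure D3:**
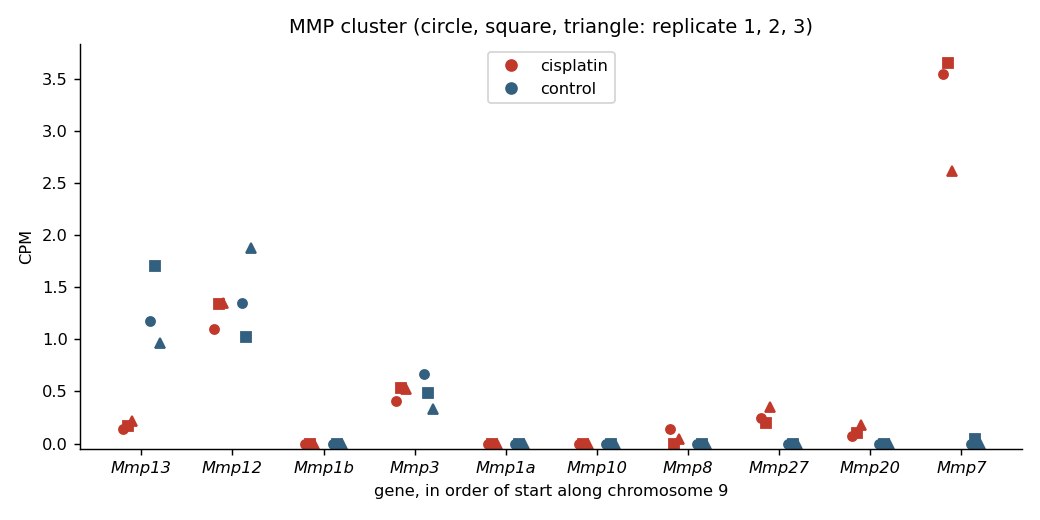
CPM (y axis, linear) of the 10 MMP genes of the chromosome 9 row in gene order (x axis), with a symbol per library, cisplatin in red on the left and control in blue on the right of each gene. Mmp13 at one end is lower in all 3 cisplatin libraries and Mmp7 at the other end higher, while Mmp12 and Mmp3 overlap between groups.

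Among the other MMPs, 3 more rose, so that 6 of 13 tested MMPs were higher (46.2%) and 1 lower (7.69%), against 24.5% and 22.8% of all tested genes. Mmp19 had 3.68, 3.32 and 1.79 CPM in cisplatin kidneys, against 0.589, 0.292 and 0.289 CPM in control kidneys (log2 fold change 2.88, SE 0.366, adjusted p = 0.000103, edgeR). Mmp23, a membrane-anchored MMP with an unusual domain structure, had 7.51, 6.67 and 6.06 CPM in cisplatin kidneys, against 2.61, 2.82 and 2.64 CPM in control kidneys (log2 fold change 1.33, SE 0.143, adjusted p = 3.26e-05). Mmp11, or stromelysin-3, had 6.51, 4.49 and 4.41 CPM in cisplatin kidneys, against 3.57, 3.07 and 2.93 CPM in control kidneys (log2 fold change 0.69, SE 0.186, adjusted p = 0.0113). Of these Mmp19 changed the most and Mmp11 the least. At Mmp11 94.3% of all counts lay on the opposite strand, where Chchd10 overlaps, so its level rests on the strand assignment, and at Mmp19 36.1% did. The membrane-bound Mmp15, Mmp16 and Mmp17 and Mmp28, or epilysin, did not pass the test, with log2 fold changes of -0.02, 0.61, -0.21 and -0.22 and mean levels under 2 CPM in both groups. Mmp24os1 had a log2 fold change of 0.11 and did not pass either, while Mmp24, Mmp21 and Mmp25 had 1 to 5 counts in the cisplatin libraries together and 0 to 4 in the control libraries.

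To set inhibitors against proteases, the levels per kb were summed in each library. The 4 TIMPs summed to 82.7, 74.6 and 70.3 CPM per kb in cisplatin kidneys, against 176, 186 and 179 CPM per kb in control kidneys. The 23 MMPs summed to 23.2, 18.1 and 14.4 CPM per kb in cisplatin kidneys, against 6.12, 5.90 and 5.29 CPM per kb in control kidneys. The ratio of TIMP to MMP level was 4.19 ± 0.667 in cisplatin kidneys and 31.4 ± 2.60 in control kidneys (SD, n = 3 each). On the log2 scale the difference was -2.91, with an exact two-sided permutation p of 0.1, the smallest that 3 against 3 libraries can give. Every cisplatin library (3.56, 4.12 and 4.89) was below every control library (28.7, 31.5 and 33.9).
Both sides of this ratio differed between the groups, with a lower TIMP sum and a higher MMP sum after cisplatin. Timp3 made up 79.9% of the TIMP sum in cisplatin and 97.0% in control kidneys. Without Timp3 the ratio was 0.833 ± 0.0795 in cisplatin and 0.927 ± 0.0188 in control kidneys (SD, n = 3 each). That difference was -0.16 on the log2 scale with overlapping groups (exact permutation p = 0.3). The TIMP sum without Timp3 was 15.3 ± 2.77 CPM per kb in cisplatin and 5.35 ± 0.484 in control kidneys (SD, n = 3 each), and so ran in the direction of the MMP sum. The makeup of the MMP sum differed too, with Mmp2 at 31.9%, Mmp14 at 19.1% and Mmp13 at 0.378% in cisplatin kidneys, against 20.3%, 13.5% and 8.27% in control kidneys.

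**Figure D4:**
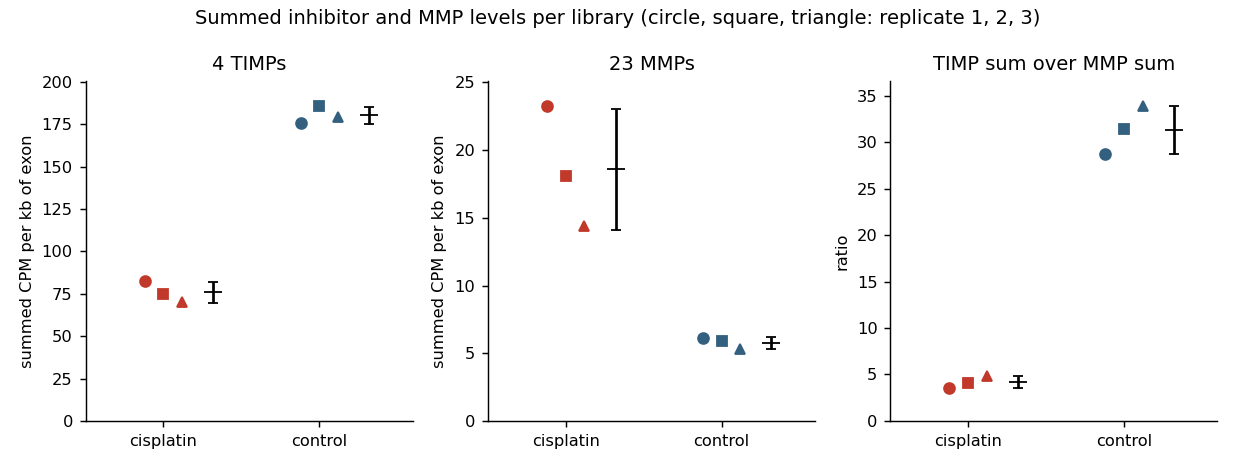
Summed TIMP level, summed MMP level (both in CPM per kb of exon) and their ratio in each library, cisplatin in red on the left and control in blue on the right, with bars for the mean ± SD of 3 libraries. The TIMP sum is lower and the MMP sum higher in all 3 cisplatin libraries, and their ratio averages 4.19 in cisplatin and 31.4 in control kidneys.

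Of the ADAMTS proteases that cleave proteoglycans, 2 of 5 tested genes were higher (40%), 1 lower (20%) and 2 not called. Over all tested genes 24.5% were higher and 22.8% lower, so the lower share was near the background. Adamts1, a protease of versican and aggrecan with the highest level per kb of the family, had 85.4, 74.3 and 65.3 CPM in cisplatin kidneys, against 38.3, 33.0 and 29.6 CPM in control kidneys (log2 fold change 1.16, SE 0.123, adjusted p = 2.9e-05, edgeR). It made up 58.6% of the ADAMTS sum in cisplatin and 42.6% in control kidneys. Adamts4, an aggrecanase, had 3.31, 3.65 and 2.70 CPM in cisplatin kidneys, against 1.18, 0.877 and 0.818 CPM in control kidneys (log2 fold change 1.74, SE 0.216, adjusted p = 8.6e-05). Adamts15, a related protease, went the other way, with 8.02, 7.20 and 7.98 CPM in cisplatin kidneys, against 16.3, 16.3 and 14.6 CPM in control kidneys (log2 fold change -1.02, SE 0.105, adjusted p = 2.25e-05). No cisplatin library overlapped a control library in these 3 genes. Adamts5, the other main aggrecanase, had 25.8, 17.0 and 22.1 CPM in cisplatin kidneys, against 29.3, 25.4 and 25.5 CPM in control kidneys. The groups overlapped and the test was not passed (log2 fold change -0.31, SE 0.141, adjusted p = 0.0949), although the adjusted p was 0.0126 without cisplatin library 1 and 0.0203 without the filter. Without the filter the adjusted p was far smaller for several other members too, Adamts1 among them. Adamts9, a versican-cleaving protease of broad expression, had a log2 fold change of 0.19 (adjusted p = 0.234).

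Of the procollagen N-propeptidases, which cut the amino-terminal ends off procollagens, 2 of 3 rose, against 24.5% of all tested genes. Adamts2, which acts on procollagens I to III, had 9.68, 5.63 and 5.89 CPM in cisplatin kidneys, against 2.90, 2.68 and 2.60 CPM in control kidneys (log2 fold change 1.37, SE 0.220, adjusted p = 0.000478, edgeR). Adamts3 had 1.38, 0.704 and 0.916 CPM in cisplatin kidneys, against 0.378, 0.390 and 0.240 CPM in control kidneys (log2 fold change 1.55, SE 0.366, adjusted p = 0.0053). Adamts14, the third, had 0.999, 1.17 and 1.48 CPM in cisplatin and 1.22, 1.36 and 1.06 CPM in control kidneys. Its groups overlapped (log2 fold change -0.01, adjusted p = 0.982), so that the higher level was seen in Adamts2 and Adamts3 and not in all members of the enzyme group.

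Among the other ADAMTS genes 5 of 6 tested rose (83.3%), against 24.5% of all tested genes. Adamts17, whose human gene is mutated in a syndrome of short stature and eye defects, had 1.31, 1.07 and 0.960 CPM in cisplatin kidneys, against 0.126, 0.146 and 0.0962 CPM in control kidneys (log2 fold change 3.14, SE 0.359, adjusted p = 4.95e-05, edgeR). Adamts16, which has been tied to blood pressure in rats, had 2.89, 3.02 and 2.70 CPM in cisplatin kidneys, against 0.546, 0.633 and 0.625 CPM in control kidneys (log2 fold change 2.25, SE 0.204, adjusted p = 1.01e-05). These were the largest changes of the family, at low levels. Adamts10, a microfibril-associated protease, had 16.2, 13.7 and 14.7 CPM in cisplatin kidneys, against 8.83, 8.91 and 7.60 CPM in control kidneys (log2 fold change 0.82, SE 0.113, adjusted p = 0.000183). Adamts12 and Adamts7 both cleave the cartilage protein COMP. Adamts12 had 5.82, 4.42 and 4.75 CPM in cisplatin kidneys, against 3.11, 2.24 and 1.73 CPM in control kidneys (log2 fold change 1.07, SE 0.211, adjusted p = 0.00182). Adamts7 had 4.41, 3.02 and 2.88 CPM in cisplatin kidneys, against 2.35, 1.75 and 2.45 CPM in control kidneys (log2 fold change 0.65, SE 0.216, adjusted p = 0.029). The Adamts7 call was lost without cisplatin library 1, control library 1 or control library 2, with adjusted p of 0.0986, 0.0552 and 0.113, and with DESeq2 (0.0791). Adamts6 did not pass (log2 fold change 0.37, adjusted p = 0.0935), but it was called higher with upper-quartile factors (0.0391), library totals (0.0122), no filter (0.0432) and without control library 1 (0.0162). Adamts8, Adamts13, Adamts18 and Adamts20 had 1 to 23 counts in the cisplatin libraries together and 0 to 18 in the control libraries, and Adamts19 had 0 counts in all 6.

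Of the 5 ADAMTS-like genes 4 rose (80%) and 1 fell (20%), against 24.5% and 22.8% of all tested genes. Adamtsl2, which binds fibrillin and a latent TGF-beta binding protein, was the most counted, with 39.9, 29.6 and 23.6 CPM in cisplatin kidneys, against 13.9, 10.7 and 13.0 CPM in control kidneys (log2 fold change 1.31, SE 0.178, adjusted p = 0.00016, edgeR). Adamtsl1 had 20.8, 13.7 and 10.3 CPM in cisplatin kidneys, against 6.64, 6.04 and 6.35 CPM in control kidneys (log2 fold change 1.24, SE 0.220, adjusted p = 0.000934). Adamtsl4, a microfibril protein of the lens ligament, had 5.27, 4.36 and 2.70 CPM in cisplatin kidneys, against 1.64, 1.56 and 1.15 CPM in control kidneys (log2 fold change 1.51, SE 0.260, adjusted p = 0.000795). In all 3 genes cisplatin library 1 was the highest and cisplatin library 3 the lowest of the injured kidneys. Adamtsl5 had 1.79, 1.41 and 1.48 CPM in cisplatin kidneys, against 0.841, 1.02 and 0.769 CPM in control kidneys (log2 fold change 0.83, SE 0.231, adjusted p = 0.0127). Without control library 3 its adjusted p was 0.0596, and with DESeq2 0.1002. Adamtsl3 was the exception with a log2 fold change of -1.04 (SE 0.365, adjusted p = 0.0368) on 26 counts in cisplatin against 43 in control libraries. Its call was lost without cisplatin library 1 or 2 or control library 2 or 3, with adjusted p of 0.111, 0.0845, 0.141 and 0.0924. It was lost as well with DESeq2 (0.155), upper-quartile factors (0.0508) and library totals (0.135).

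All 5 lysyl oxidases rose after cisplatin, against 24.5% of all tested genes. Lox itself had 23.4, 15.3 and 10.2 CPM in cisplatin kidneys, against 2.90, 2.82 and 2.74 CPM in control kidneys (log2 fold change 2.53, SE 0.274, adjusted p = 3.34e-05, edgeR). The control kidneys were nearly alike, while the cisplatin kidneys lay far apart. Loxl1, which is needed for elastic fibre upkeep, had 24.2, 13.3 and 12.6 CPM in cisplatin kidneys, against 9.92, 6.67 and 6.68 CPM in control kidneys (log2 fold change 1.10, SE 0.251, adjusted p = 0.00428). Loxl2, which crosslinks type IV collagen of basement membranes, had 8.13, 5.80 and 4.58 CPM in cisplatin kidneys, against 4.50, 3.07 and 4.14 CPM in control kidneys (log2 fold change 0.66, SE 0.219, adjusted p = 0.0284). Its lowest cisplatin library was barely above its highest control library. The Loxl2 call was lost without cisplatin library 1 or 2 or control library 2 or 3, with adjusted p of 0.0988, 0.0563, 0.112 and 0.0597.
Loxl3 had 5.30, 3.99 and 4.93 CPM in cisplatin kidneys, against 2.77, 2.82 and 1.83 CPM in control kidneys (log2 fold change 0.93, SE 0.195, adjusted p = 0.00266). Loxl4 had 3.96, 5.09 and 4.75 CPM in cisplatin kidneys, against 2.77, 2.78 and 2.69 CPM in control kidneys (log2 fold change 0.74, SE 0.154, adjusted p = 0.00253). In neither gene did the groups overlap. At Loxl3 53.3% of all counts lay on the opposite strand, where Htra2 overlaps. The level per kb summed over the 5 genes was 10.4 ± 3.27 CPM per kb in cisplatin and 4.23 ± 0.640 in control kidneys (SD, n = 3 each, exact permutation p = 0.1). Lox made up 31.1% of that sum in cisplatin and 13.7% in control kidneys, while Loxl1, the largest part in both, made up 40.0% and 46.0%. The ADAMTS sum was 23.4 ± 2.89 CPM per kb in cisplatin and 14.4 ± 1.39 in control kidneys, and the ADAMTS-like sum 5.54 ± 1.53 and 2.32 ± 0.173 (SD, n = 3 each, exact permutation p = 0.1 for both).

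The genes that rose did so unequally among the 3 injured kidneys. Of the 26 genes called higher, cisplatin library 1 was the highest in 21, library 2 in 4 and library 3 in 1, and library 3 was the lowest in 18. Over all 3841 genes called higher, library 1 was the highest in 47.9%, library 2 in 30.3% and library 3 in 21.9%, and library 3 was the lowest in 49.9%. Cisplatin library 1 also had the largest share of pairs without a gene, at 9.32%, against 6.63% and 6.09% in libraries 2 and 3, and the largest TMM factor, at 1.26, against 1.18 and 1.05. Several marker sums were highest in library 1 as well, those of macrophages, endothelium, T cells and podocytes among them. Fibroblast and myofibroblast markers had a sum over 10 markers of 607, 411 and 407 CPM in cisplatin libraries 1 to 3, against 264, 230.5 and 223 CPM in control libraries. Collecting duct, neutrophil, tubular injury, and B and plasma cell sums were not highest in library 1. The tubular injury sum was 2413, 2277 and 2584.5 CPM in cisplatin libraries 1 to 3, highest in library 3. The part of any of these measures in the order was not tested. Timp1 was an exception, with its highest level in cisplatin library 3, as were Mmp7, Adamts4, Adamts16 and Loxl4, which peaked in library 2.

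**Figure D5:**
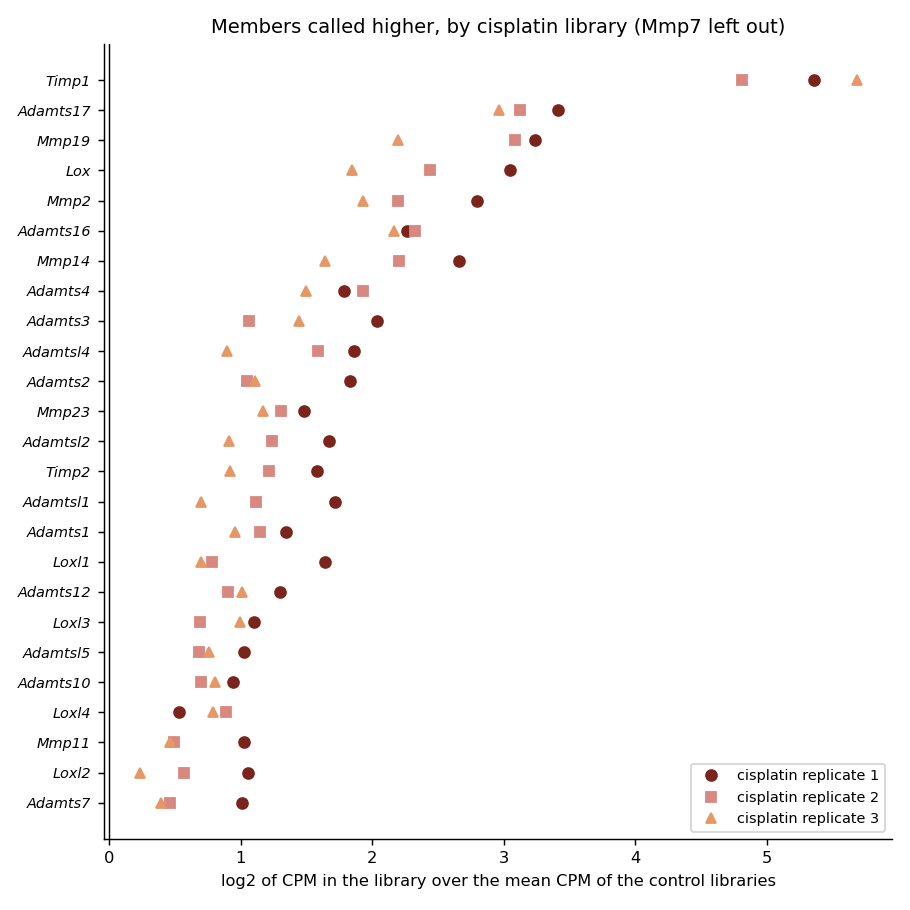
Log2 of the CPM in each cisplatin library over the mean CPM of the control libraries (x axis) for 25 of the 26 genes called higher, with a symbol per cisplatin replicate. Mmp7 is left out because its control mean rests on 1 count. Replicate 1 lies farthest right for most genes, and replicate 3 for Timp1 alone.

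Markers of several cell types moved along with these genes, beside a background of 24.5% higher and 22.8% lower over all tested genes. Of the 10 fibroblast and myofibroblast markers 8 were higher and 0 lower, with a median log2 fold change of 0.82, among them Dcn (1.58), Pdgfra (0.92) and Col1a1 (1.66). Of the 10 macrophage markers 9 were higher and 0 lower, with a median of 1.71 and sums of 270 to 325 CPM in cisplatin and 88.2 to 110 CPM in control kidneys. Endothelial markers summed to 256 to 313 CPM in cisplatin and 350 to 358 CPM in control kidneys, with 3 of 8 lower. Neutrophil markers were scarce, with sums of 3.99 to 4.36 CPM in cisplatin and 2.34 to 2.50 CPM in control kidneys and with Ly6g, Mpo and Elane at 0 in every library. T cell markers were higher in 3 of 4 tested genes, with sums of 4.10 to 5.23 CPM in cisplatin and 2.12 to 2.77 CPM in control kidneys. Among tubule segments, 5 of 7 collecting duct markers were higher and 0 lower, with sums of 273 to 342 CPM in cisplatin and 189 to 203 CPM in control kidneys. Of 4 thick ascending limb markers 2 were higher and 2 lower. They summed to 2606 to 3105 CPM in cisplatin and 3819 to 4120 CPM in control kidneys. Of 6 podocyte markers 2 were higher and 0 lower, and of 2 tested B and plasma cell markers 0 were higher and 1 lower. No marker is one of the 57 genes, and the part of cell makeup in the changes above was not tested.

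The substrates and partners of these enzymes were counted from lists of their own, with log2 fold changes in parentheses. The background for each list is the 24.5% of all tested genes that were higher and the 22.8% that were lower. Some genes stand in a marker list as well: Col1a1, Col1a2, Dcn and Lum among fibroblast, Spp1 among tubular injury and Lrp2 among proximal tubule markers. Of 16 collagens and basement membrane proteins cleaved by them, 11 were higher and 2 lower, with a median log2 fold change of 0.71. Col1a1 (1.66) and Col3a1 (1.19), the main fibrillar collagens, and Col18a1 (1.64) and Lamb1 (0.73) of basement membranes rose, while Col4a3 (-1.41) and Col4a4 (-1.01), which encode chains of type IV collagen found in the glomerular basement membrane, fell. Col4a5, whose chain joins these, did not pass the test (0.25, adjusted p = 0.178). Of 9 tested proteoglycans and glycoproteins 6 were higher, led by Spp1 (3.04), Dcn (1.58), Thbs1 (1.46) and Bgn (1.18). The other tested genes included Fmod (-0.92) and Vcan (-0.54), which fell, and Vcan encodes versican, a substrate of Adamts1, Adamts4, Adamts9 and Adamts15.

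Of 16 elastic fibre and microfibril genes 11 were higher and 0 lower, with a median log2 fold change of 1.07. Efemp1 (1.35), Efemp2 (1.29), Emilin1 (1.13) and Mfap2 (2.06) had the smallest adjusted p. In contrast, genes that modify collagen inside the cell before lysyl oxidases act on it tended lower, with 2 of 13 tested higher, 6 lower and a median of -0.28. P4ha1 (-0.65) and P4hb (-0.39), which encode subunits of prolyl hydroxylase, Crtap (-0.76) and the lysyl hydroxylase Plod2 (-0.44) fell, while the chaperone Serpinh1 (0.29) and Colgalt1 (0.44) rose. P4ha2, another subunit, did not pass the test (-0.28, adjusted p = 0.0569), and P4ha3 was not tested.

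Among the proteases that remove the other end of procollagens or activate proforms, 2 of 10 tested were higher (20%) and 4 lower (40%). Over all tested genes 24.5% were higher and 22.8% lower. Bmp1 (1.74), the procollagen C-proteinase that also matures Lox, and its enhancer Pcolce (0.62) rose, and the brush border meprins Mep1b (-2.65) and Mep1a (-1.34) and the convertases Pcsk5 (-0.53) and Pcsk7 (-0.27) fell. In the plasminogen and cathepsin list 7 of 12 were higher and 3 lower. The protease inhibitor Serpine2 (2.15) and the cathepsins Ctsk (1.92) and Ctss (1.45) rose, and Serpinf2 (-3.42), Htra1 (-0.76) and Ctsl (-0.27) fell. Of 8 tested ADAM sheddases 2 were higher, Adam8 (3.29) and Adam12 (0.46), and Adam9 (-0.52) was lower. These shares, 25% higher and 12.5% lower, were no larger than about those over all tested genes. Of 8 tested other inhibitors and uptake receptors 4 were higher, among them Spock2 (2.78), the collagen receptor Mrc2 (1.26) and Lrp1 (0.95), and 3 lower, Lrp2 (-1.42), Bsg (-0.51) and Tfpi2 (-0.63). Of 12 TGF-beta pathway genes 8 were higher, 0 lower and 4 not called, with a median of 0.46.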

How the data were processed

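Total RNA from 6 kidneys was made into strand-specific libraries and sequenced as read pairs. Per the labels and the paper's methods, the authors trimmed adapters with Cutadapt, aligned to mm39 with STAR and deposited STAR's raw counts per gene without normalization. For STAR's settings and the annotation release the entry is "not given in the sources used here". Of the deposited columns, the one for the transcript strand was taken, with 96.7% to 97.2% of all stranded counts. Pairs without a gene made up 6.09% to 9.32% of cisplatin and 4.63% to 4.86% of control libraries and were left out.

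Gene symbols, biotypes and exon lengths came from GENCODE vM39, which matched 56017 of 56691 identifiers. The main test was the quasi-likelihood F test of edgeR (version 4.0.16) on all 6 libraries without a block, after filterByExpr with a count of 10 and a total of 15 as minimums and TMM scaling. Benjamini-Hochberg adjusted p-values were called at 0.05, and the fit was checked on simulated data. The biological coefficient of variation was 11.0%. Level per kb is CPM divided by the union exon length. Sums and ratios were compared by exact two-sided permutation over libraries, which cannot give a p under 0.1. Intervals and floors cover counting error only. The members and gene lists were chosen with earlier results of these data known. Values in every library are given for the TIMPs, Mmp2, Mmp7, Mmp9, Mmp14, Adamts1, Adamts5 and the lysyl oxidases, and for tested members past the threshold with a mean of at least 1 CPM in a group. From each list up to 4 genes per direction with the smallest adjusted p were named, except for 1 gene that is not reported here. Other members are given by ranges, except that Mmp3, Mmp12 and Adamts14 were given per library, and P4ha2, P4ha3 and Col4a5 named, after their values were seen.

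The fit was repeated with DESeq2 (version 1.42.0) and limma-voom (limma 3.58.1). Scaling was varied to library totals, to the upper quartile and to the size factors of DESeq2. The filter was dropped or raised to 10 counts in all libraries. Strand was ignored, mitochondrial genes and the 20 most counted genes were removed, a block for the replicate number was added and each library was left out in turn. The threshold was set to 0.01, and changes were tested against 1.5-fold. Canonical transcript length, Mmp24os1 in the MMP sum, Timp3 left out, Kap left out of its marker sum and members at the filter level in all libraries were chosen after seeing the data. Versions were 4.3.3 for R and 3.11.15 for Python, with scipy 1.17.1, numpy 2.4.6, pandas 2.3.3 and matplotlib 3.10.9.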

Additional observations from a re-analysis of the deposited data

Results flagged for a closer look

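Counts on the strand opposite to Loxl3, which the Loxl3 comparison does not use, were 4.51, 4.83 and 4.54 CPM in cisplatin kidneys, against 3.62, 4.24 and 3.51 CPM in control kidneys. All 3 cisplatin libraries were above all 3 control libraries, by 1.22-fold in the mean. That separation was the rule by which it was picked, among members with at least 30 opposite-strand counts, so it adds no support. Over all tested genes, 30.2% were separated upward on the strand used. The gene Htra2 overlaps Loxl3 on that strand.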

How the results depend on the processing

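The counts of 26 members higher and 4 lower were 25 and 3 with DESeq2, 30 and 3 with library totals, 29 and 5 without a filter, and 18 and 3 against a fold of 1.5. The calls without a filter are not on a par with the rest. For Adamts1 the edgeR adjusted p was 5.14e-25 there and 2.9e-05 in the main fit, at log2 fold changes of 1.15 and 1.16. DESeq2 kept 24 of the 26 and 3 of the 4, losing Adamts7, Adamtsl5 and Adamtsl3 and adding Mmp27. Library totals lost Adamtsl3 and added Adamts6, Adamts9, Mmp16 and Mmp24os1. With at least 10 counts in every library, and likewise over members at the filter level in all 6 libraries, the number lower was 2, since Mmp13 and Adamtsl3 are no longer counted. No member called in the main fit changed direction under any alternative run. Adamts5, called lower only in some alternative runs, had a log2 fold change of 0.12 with library totals, where it was not called (edgeR adjusted p = 0.56). Leaving out a library gave 24 to 26 members higher and 3 to 4 lower, a TIMP to MMP difference of -3.03 to -2.80 on the log2 scale, and 1.49 to 1.83 for the MMP sum, -1.32 to -1.20 for the TIMP sum, 0.60 to 0.78 for the ADAMTS sum, 1.02 to 1.42 for the ADAMTS-like sum and 1.03 to 1.44 for the lysyl oxidase sum.

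The TIMP to MMP difference of -2.91 was -2.64 with counts that ignore the strand, -2.11 with Mmp24os1 in the MMP sum and -0.16 without Timp3. With library totals the log2 differences of the sums were 2.09 for the MMPs, -0.83 for the TIMPs, 1.12 for the ADAMTS and 1.65 for the ADAMTS-like genes. Without scaling for length they were -1.39 for the TIMPs and 0.52 for the ADAMTS. Over all genes, library totals called 8508 higher and 1375 lower, upper-quartile factors 4774 and 2890, and TMM 3841 and 3578. DESeq2 called 2905 higher and 3484 lower of 20113 genes, and the fit without a filter 4263 and 3872 of 30146. The test against 1.5-fold called 1396 and 1114 of 15662. Leaving out a library gave 3000 to 4045 genes higher and 2902 to 4180 lower.

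With the replicate number as a block, 27 members were higher and 5 lower, with Adamts6 and Adamts5 added. Over all genes, 4087 were higher and 3796 lower with the block. Libraries with the same number had correlations of 0.133, 0.142 and 0.0997 between their deviations from the group means, each the highest for its number. Between libraries of different numbers the correlations were -0.126 to -0.0259. Deviations from a group mean sum to 0 in each gene, so these negative values follow in part from the positive ones and are no separate observation. The labels give no shared origin, so the numbers were not taken to pair the mice in the main fit. Whether libraries of the same number share a batch was not tested. The 16 untested members had 0 to 23 counts per group, and differences among them were not detectable at this depth beyond the bounds given.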
